A study of Mus musculus with 9 samples.

Results

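The H3K27ac landscape of preovulatory mouse granulosa cells was described from 1 peak list, made at 0 h, before any ovulatory stimulus. All peaks on chromosomes 1 to 19 and X were taken as members, 37453 of the 37460 in the list and of 82643 peaks in the 5 peak lists of the series. Each peak is a stretch of genome called as enriched by chromatin immunoprecipitation and sequencing (ChIP-seq) with an antibody to histone H3 acetylated at lysine 27 (H3K27ac). A base, gene or start is called acetylated here where such a peak covers it or lies within the stated distance.

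The series was designed around binding of the glucocorticoid receptor in ovarian granulosa cells, and 4 of its 5 lists are for that receptor; they were not used here. The H3K27ac library came from wildtype CBA x C57BL/6 F1 mice, which were 21 days old, had been given 5 IU of equine chorionic gonadotropin (eCG, also called PMSG) and were killed 44 h later without human chorionic gonadotropin (hCG). The granulosa cells were obtained by puncturing the ovaries, so they were not sorted, and the labels do not say how many mice were pooled. It is the only H3K27ac library, so nothing below has a replicate check, no test between conditions was possible and no value has an error between samples. The list gives the position of each peak and no height, and the read depth behind it is unknown. The precision of a share is given as a Wilson 95% interval, which covers counting error only and treats neighbouring peaks as independent.

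Granulosa cells line the ovarian follicle and nurse the oocyte. Under follicle-stimulating hormone (FSH), whose action eCG mimics, they divide, take up the receptor for luteinising hormone (LH), turn androgen from the theca cells outside the follicle into oestradiol with the aromatase Cyp19a1, and secrete inhibin and anti-Müllerian hormone. The LH surge, which hCG imitates, then switches them to progesterone production and to the genes of ovulation. H3K27ac is placed by the acetyltransferases p300 and CBP on nucleosomes beside active promoters and enhancers, and long runs of it often lie at genes that define a cell type. In a bulk library, fewer cells that carry the mark and less mark per cell cannot be told apart.

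Sequences at a few well-known genes show what the peaks do and do not cover. Each is 250 bases before and 50 after a listed transcription start, from RefSeq for GRCm38.p6, whose coordinates are those of mm10, written 5′ to 3′ on the strand of the gene. Capitals mark, on either strand and with overlaps allowed, GGGCGG (the GC box bound by Sp1-type factors), TATAAA (bound by the TATA-binding protein) or CACGTG (an E-box). The first start, of the granulosa factor gene Foxl2, lay inside a peak of 9280 bp. The second, of the FSH receptor gene Fshr, lay inside a peak of 4426 bp. The next pair are the most internal and the most upstream of 3 listed starts of Cyp19a1, of which the first lay in a peak of 4912 bp and the second had no peak within 1 kb. The last, of the prostaglandin synthase gene Ptgs2, known for its induction by LH, had no peak within 50 kb.
Foxl2, chr9:98955357-98955656, plus strand: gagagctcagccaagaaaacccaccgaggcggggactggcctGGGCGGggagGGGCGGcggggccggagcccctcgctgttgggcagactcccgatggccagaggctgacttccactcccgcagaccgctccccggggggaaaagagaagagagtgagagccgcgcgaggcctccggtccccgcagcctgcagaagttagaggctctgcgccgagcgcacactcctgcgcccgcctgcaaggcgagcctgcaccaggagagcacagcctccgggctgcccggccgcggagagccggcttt
Fshr, chr17:89200626-89200925, minus strand: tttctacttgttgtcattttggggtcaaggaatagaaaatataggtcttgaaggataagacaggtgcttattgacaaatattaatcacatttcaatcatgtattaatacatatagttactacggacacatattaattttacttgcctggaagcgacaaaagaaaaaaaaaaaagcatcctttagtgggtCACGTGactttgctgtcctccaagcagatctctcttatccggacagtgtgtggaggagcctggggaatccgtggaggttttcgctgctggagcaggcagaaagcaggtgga
Cyp19a1, internal start, chr9:54193694-54193993, minus strand: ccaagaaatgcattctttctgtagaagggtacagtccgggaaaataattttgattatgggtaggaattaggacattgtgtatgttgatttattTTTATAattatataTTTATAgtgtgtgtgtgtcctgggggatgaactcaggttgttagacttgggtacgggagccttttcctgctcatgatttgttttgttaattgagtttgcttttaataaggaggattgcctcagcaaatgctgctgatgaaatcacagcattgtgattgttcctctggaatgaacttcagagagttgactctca
Cyp19a1, upstream start, chr9:54268115-54268414, minus strand: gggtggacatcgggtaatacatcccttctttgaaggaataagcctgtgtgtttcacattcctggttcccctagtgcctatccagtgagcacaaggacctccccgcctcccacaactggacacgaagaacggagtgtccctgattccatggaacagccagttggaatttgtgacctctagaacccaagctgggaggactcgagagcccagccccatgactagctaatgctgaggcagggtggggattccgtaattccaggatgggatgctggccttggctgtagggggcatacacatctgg
Ptgs2, chr1:150099781-150100080, plus strand: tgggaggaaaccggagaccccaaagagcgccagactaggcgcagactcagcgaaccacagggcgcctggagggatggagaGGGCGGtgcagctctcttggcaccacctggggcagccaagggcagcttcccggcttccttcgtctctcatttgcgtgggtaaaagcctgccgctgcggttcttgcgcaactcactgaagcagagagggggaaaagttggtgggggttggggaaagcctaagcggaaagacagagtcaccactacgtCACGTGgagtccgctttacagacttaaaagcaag

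The Foxl2 stretch held 27 CpG dinucleotides and 2 GC boxes, whereas the acetylated Fshr and internal Cyp19a1 stretches held 6 and 2 CpG and no GC box. The Ptgs2 stretch, without a peak, held 16 CpG, 1 GC box and 1 E-box. So the examples include acetylated starts with few CpG and an unacetylated one with many. The listed start of Inha lies 532 bp inside its gene span and is not shown, and Amh is named only.

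MicroRNA genes were looked up in the same way after the peak widths were known. Of 1005 RefSeq hairpins, 96 (9.55%, interval 7.89 to 11.5) overlapped a peak. The widest of those peaks, of 8600 bp on chromosome X, held both Mir322 and Mir503. Peaks of 7795 bp on chromosome 7 and 5553 bp on chromosome 11 held Mir202 and Mir22. A mature form from each hairpin is shown with its seed, bases 2 to 8, in capitals, because the first pair share most of it.
miR-322-5p: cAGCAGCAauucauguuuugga
miR-503-5p: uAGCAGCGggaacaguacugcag
miR-202-5p: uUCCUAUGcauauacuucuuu
miR-22-3p: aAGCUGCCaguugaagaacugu
The seeds of miR-322-5p and miR-503-5p are alike up to their last base. A peak over a hairpin says nothing of how much of the microRNA was made.

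The peaks covered 36.0 Mb, or 1.37% of the 2631 Mb that reach from the first base of each chromosome to its last gene or peak. The median peak was 637 bp wide, with quartiles of 353 and 1232 bp. The narrowest were 200 bp, a width shared by 375 peaks, and the widest reached 32326 bp. A peak of 1 kb or more spanned several nucleosomes, and the 12305 such peaks were 32.9% of the list but 66.3% of the acetylated sequence. At the other end of the scale, 304 peaks (0.812%) were 5 kb or wider and held 6.15% of the sequence, and 34 were 10 kb or wider. Of all peaks, 19.8% held 50% of the acetylated bases. Peaks stood in groups: the gap to the next one had a median of 9199 bp and quartiles of 521 and 40540 bp, and 10728 of 37433 gaps (28.7%) were under 1 kb, with a median of 202 bp among those.

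Most peaks lay in or near genes. No more than 1 kb from an end of some protein-coding gene were 12307 peaks, 32.9% (interval 32.4 to 33.3). The stretches within 1 kb of an end make up 2.98% of the chromosomes and held 29.7% of the acetylated bases. A further 16257 peaks (43.4%, 42.9 to 43.9) lay inside a gene span away from its ends. Outside genes but within 50 kb of one were 5882 (15.7%, 15.3 to 16.1), and 3007 (8.03%, 7.76 to 8.31) lay farther off. Gene spans with 50 kb each side cover 63.1% of the chromosomes and held 92.0% of the peaks. The most distant peak lay 1896191 bp from Pcdh20 on chromosome 14.

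Peaks at gene ends were wider than the rest, with a median of 848 bp against 542 bp inside genes, 561 bp within 50 kb and 544 bp beyond. Only 18.4% of the 6760 peaks under 300 bp lay at an end. Of the 304 that were 5 kb or wider, a limit chosen after the widths were seen, 141 (46.4%, interval 40.9 to 52.0) lay inside a gene and 109 (35.9%, 30.7 to 41.4) at an end, and these intervals include the shares over all peaks. Of the 297 such peaks on chromosomes with listed starts, 84 (28.3%) held a start.

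**Figure D1:**
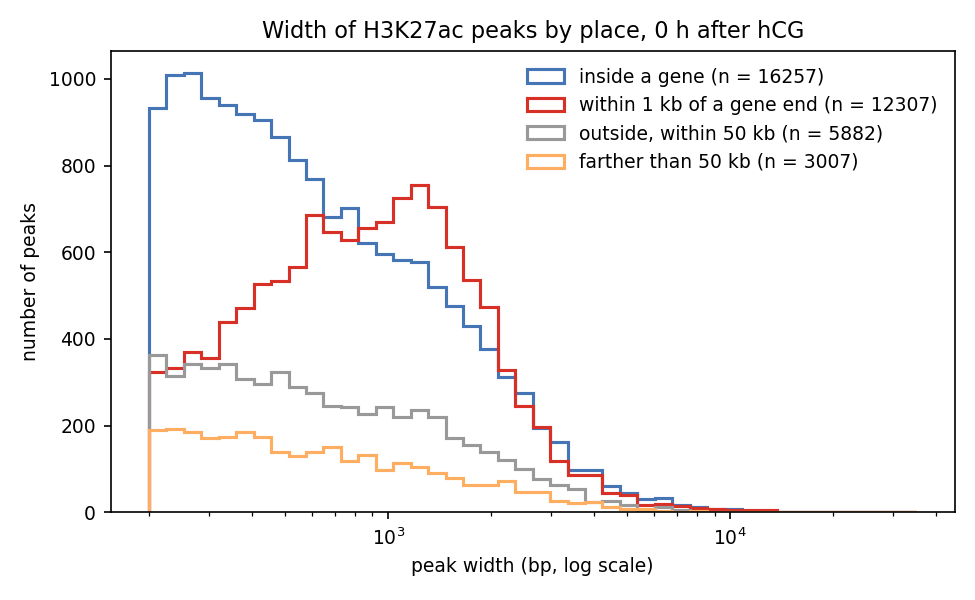
Number of H3K27ac peaks (y axis) by width in bp (x axis, log scale), drawn as 1 outline for each place relative to protein-coding genes. Peaks within 1 kb of a gene end are shifted to larger widths, with a median of 848 bp, and those inside genes have a median of 542 bp.

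Peaks at ends lay mostly at starts. Starts were listed for 17274 genes on 19 chromosomes, and 8652 of them (50.1%) had a peak within 1 kb of a start, against 1415 (8.19%) at the far end. Among 11034 genes longer than 10 kb, in which the ends are well apart, the shares were 59.1% and 6.90%. A peak that held no start had a median width of 542 bp, which became 1161 bp with 1 start, 1425 bp with 2 and 1728.5 bp with 3 or more. Peaks were grouped here by the starts inside them, and a wider peak has more room for starts.

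Around the starts of the 14513 genes with a single listed start, coverage had a dip with a shoulder on each side. It was 33.0% at position -275, 29.2% at -100 and 43.6% at 200 bp into the gene, and it fell to about 2.5% at 10 kb on either side. At the far ends of 8755 genes longer than 10 kb it was 2.26%. Of 21045 listed starts, 7713 (36.7%) lay inside a peak, 1106 (5.26%) lay between a peak on each side within 1 kb, 1506 (7.16%) had a peak on 1 side, and 10720 (50.9%) had none. H3K27ac is carried by nucleosomes, which active starts tend to lack. These classes and the profile were drawn up after the gaps were seen.

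**Figure D2:**
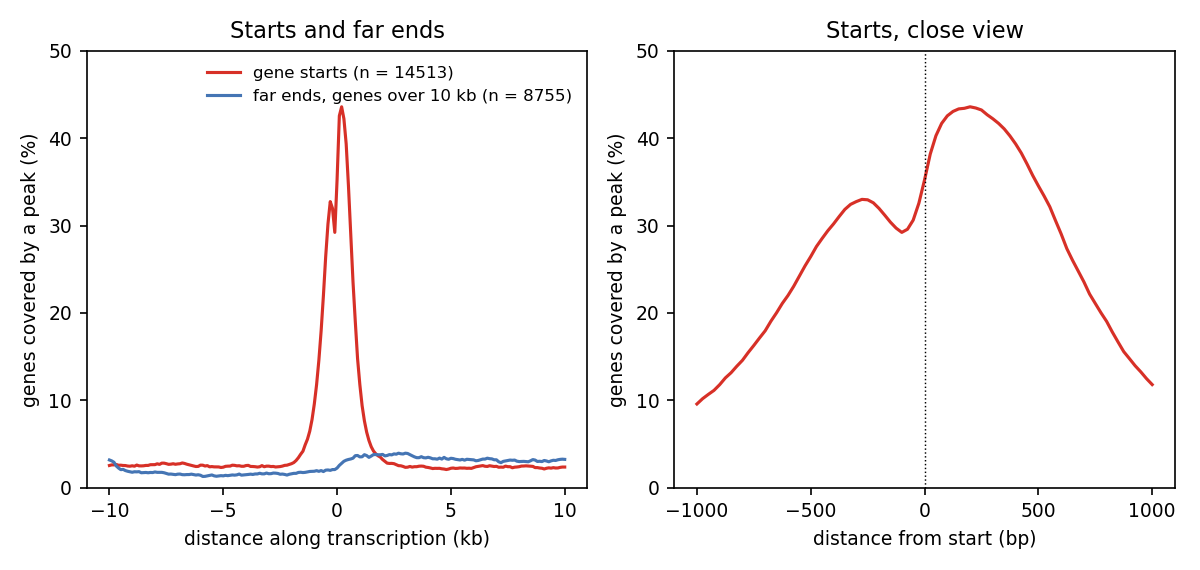
Percent of genes covered by an H3K27ac peak (y axis) by distance in kb from the transcription start or from the far end of the gene (left panel, direction of transcription to the right) and by distance in bp from the start alone (right panel). Coverage at starts has a crest of 43.6% downstream and a dip of 29.2% just upstream, and coverage at the far ends is 2.26%.

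A promoter's CpG content went with its acetylation. Promoters of 300 bases with a peak within 1 kb had a median of 22 CpG, those without had 4. The share with a peak was 3.69% of promoters with 0 to 2 CpG, 33.4% with 6 to 10 and 81.4% with 31 to 100. GGGCGG was found in 67.8% of the promoters with a peak, 26.3% of those without and 46.7% of all 21045. TATAAA went the other way, with 5.97%, 19.1% and 12.7%. Motifs were read on both strands, and the full cAMP response element TGACGTCA was found in 3.53% of promoters with a peak and 1.04% of those without. The motif CAAGGTCA, bound by Nr5a1 and Nr5a2, was found in 0.988% and 1.59%, and AGATAA, bound by GATA factors, in 5.52% and 13.7%. TGANTCA, where N is any base, was found in 4.04% and 9.93%, and TGTTTAC in 2.47% and 3.57%. CACGTG, added after the promoters were read, was found in 10.5% and 5.47%. CpG content differs between the classes and bears on the frequency of each motif, and its part in these shares was not tested.

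Over genes, 10491 of 21631 (48.5%) had a peak within 1 kb of an end, 11803 (54.6%) had one inside the span and 16497 (76.3%) had one in the window, that is the span with 50 kb each side. Of the 17274 genes with a listed start, 7782 (45.1%) had peaks at the start and elsewhere in the window, with a median of 5358 acetylated bp in all. Peaks elsewhere alone were found at 4535 genes (26.3%), and at the start alone at 870 (5.04%). The remaining 4087 (23.7%) had none. Put otherwise, a start was acetylated at 65.6% of the genes with a peak in the window, and 52.6% of the 8622 genes without an acetylated start had a peak elsewhere in the window. Of 2761 genes with more than 1 listed start, 1198 had all starts acetylated, 984 had none, and 579 had some acetylated and others not.

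The acetylated sequence in a gene's window had a median of 2580 bp over all genes, with quartiles of 304.5 and 6015.5 bp. The 90th percentile was 10846 bp and the 99th 23742 bp. Windows hold the peaks of neighbouring genes as well, and their lengths differ. Across the 21631 genes, which are not independent, Spearman's rho of acetylated bp was 0.19 with window length and 0.37 with the number of other genes in the window.

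The gene with most acetylated sequence in its window was Msi2, an RNA-binding protein gene, with 113147 bp in 84 peaks, of which 109253 bp lay in the gene itself. Tanc1, a scaffold protein gene, followed with 78316 bp, then Spsb1, which encodes a substrate adaptor of a ubiquitin ligase, with 76488 bp. Greb1, a classical oestrogen-induced gene, had 68409 bp, and Bmpr1b, a receptor for oocyte-derived growth factors, 65535 bp. Cradd (59453 bp, beside Socs2), Syne2 (57985 bp, beside the oestrogen receptor gene Esr2), Sik3 (57456 bp), Fam13a (53802 bp) and Tenm4 (51912 bp) made up the first 10. These are long genes for the most part, and Tenm4, 10th by bp, was 3595th by share of its window.

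By share of the window the leading genes were mostly compact, though Spsb1 spans 58724 bp and Greb1 130780 bp. Spsb1 was first, with 48.2% of its window acetylated. Inhbb, which encodes the inhibin beta B subunit, was second with 43.7% over 18 peaks, and its whole span of 6786 bp was covered. The inhibin alpha gene Inha reached 29.96%, again with its whole span of 3290 bp covered, and Greb1 29.6%. Hao2, with 30.8%, shares its window with the steroidogenic gene Hsd3b1. The histone gene H2bc7 (35.2%), Borcs6 (34.1%, beside Aurkb and Per1), Ptpn23 (33.9%, beside Scap) and Zadh2 (31.6%, beside Tshz1) lie among close neighbours, whose peaks their windows hold. Tgif1, a repressor in transforming growth factor signalling, had 30.02%.

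The widest single peak, of 32326 bp, lay in Greb1 at chr12:16729998-16762323. Next came 22951 bp over St3gal4 and Dcps, 19412 bp in Nr5a2, which encodes the nuclear receptor LRH-1 of granulosa cells, 17878 bp in Synpo, and 16827 bp over Inhba, the inhibin beta A gene. Msi2 (16263 bp), Hao2 (15707 bp), Spsb1 (15191 bp) and Sulf2 (14351 and 13852 bp) completed the first 10. Just outside that limit stood 13521 bp over Gja1, the gap junction gene connexin 43, 13063 bp over Inhbb, 12973 bp in Tox2, 12765 bp in Prkar2b and 12723 bp over Inha. So each of the 3 inhibin subunit genes held a peak among the 15 widest of the list; these 5 were named after their ranks were seen.

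Peaks up to about 13 kb apart were joined into domains; the exact limit stands in the title of the domain plot. Of 16911 domains, 8560 were a single peak, and 74 held 20 kb or more of acetylated sequence. The 74 had a median extent of 65.0 kb and held 1390 peaks (3.71%) and 6.21% of the acetylated sequence, and they touched 134 genes (0.619%). The first was at Spsb1, chr4:149821499-149956059, with 76376 bp in 44 peaks. Tanc1 followed with 72518 bp, and the domain over Greb1 and E2f6 with 68409 bp was the longest, at 146 kb. Tox2 (49422 bp), Msi2 (48748 bp), Herc3 with Nap1l5 and Fam13a (48069 bp), Ksr1 (45984 bp), Scap with Ptpn23 (43943 bp), Sulf2 (43033 bp) and Syne2 with Esr2 and Tex21 (40500 bp) were the rest of the first 10.

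Genes of granulosa endocrine function recurred lower in that order, as read off after the ranks were seen. The domain over Inhbb was 11th with 40235 bp, and that over Hsd3b1 and Hao2 was 17th with 35589 bp. Inha shared the 28th, of 28658 bp, with Gmppa, Asic4, Chpf, Tmem198, Obsl1 and Stk11ip. Hsd17b1, which reduces oestrone to oestradiol, shared the 37th, of 26086 bp, with Atp6v0a1, Naglu, Coasy, Mlx and Psmc3ip. Nr5a2 was 50th with 23852 bp and Inhba 62nd with 21377 bp. Gata4 was 68th with 20826 bp and the lipoprotein receptor gene Scarb1 71st with 20417 bp. The 18th domain covered 15 histone genes, and the 20th, beside Frmd8, covered the long non-coding RNA genes Malat1 and Neat1. A set of 5 domains touched no protein-coding gene. The first of these, 19th in all, held 33317 bp in 20 peaks at chr10:56516133-56595353, 125714 bp from Gja1.

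**Figure D3:**
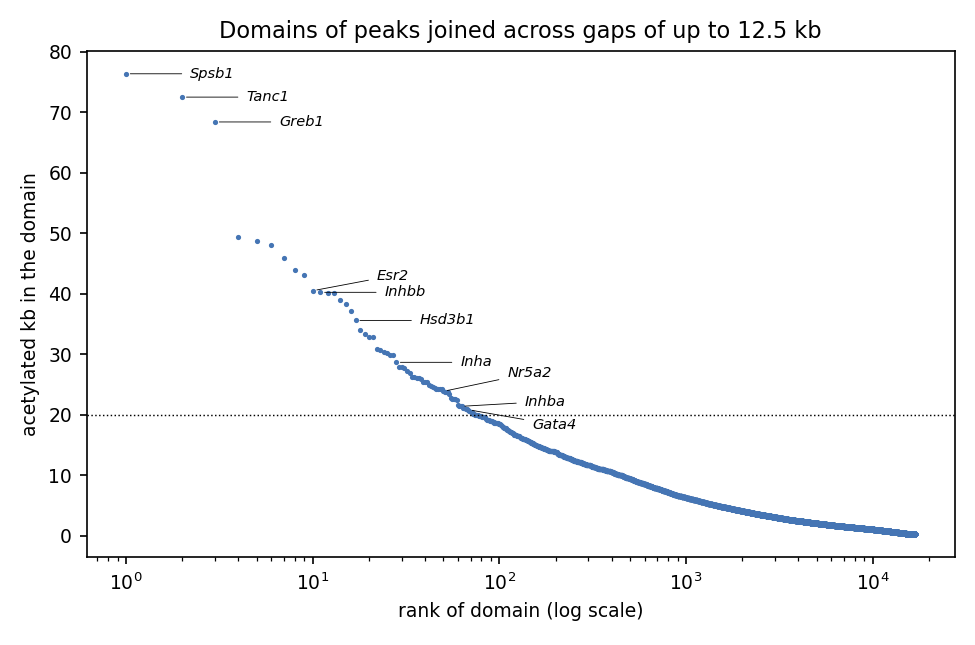
Acetylated kb in each of the 16911 domains (y axis) by rank (x axis, log scale), with a dotted line at 20 kb and some genes named. A few domains stand far above the rest: Spsb1, Tanc1 and Greb1 hold 76376, 72518 and 68409 bp, and the fourth holds 49422 bp.

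Lists of marker genes were set beside all genes. They were chosen with earlier results of these data known, so they are no independent check of the cell label. Acetylated ends were also found at 18 of 20 cell cycle and 14 of 15 housekeeping genes, so they do not single out granulosa genes. At a gene end, 17 of 20 granulosa transcription factor genes, 11 of 14 genes of FSH, LH and cAMP signalling and 19 of 21 genes of oestrogen, inhibin and anti-Müllerian hormone had a peak, beside 48.5% of all genes. Every member of the 3 lists had a peak in the window, beside 76.3% of all genes. Median acetylated sequence per window was 10023, 11509.5 and 15533 bp in the 3 lists, against 2580 bp over all genes. Their windows were longer, with medians of 170, 174 and 127 kb against 117 kb over all genes. As a share of the window, the medians were 4.23%, 5.88% and 11.5%, against 1.87% over all genes. By that share the granulosa transcription factors were below housekeeping (8.22%), early transcription factor (5.08%) and cell cycle genes (5.03%). The FSH, LH and cAMP list was below housekeeping genes. A peak of 5 kb or wider touched 7, 4 and 9 genes of the 3 lists (1.07% of all genes). In the window, 10, 9 and 17 of them had 10 kb or more (11.7% of all genes). So had 6 of 15 housekeeping, 7 of 20 early transcription factor, 7 of 18 progesterone and cholesterol and 4 of 20 cell cycle genes. Both limits were chosen after the values were seen.

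Among granulosa transcription factor genes, Esr2, the main oestrogen receptor gene of these cells, had the most acetylated sequence with 43865 bp. Gata4, which acts with Nr5a1 on steroidogenic promoters, had 34665 bp and Nr5a2 26569 bp, all of it inside the gene and none at its outer ends. Foxl2, which maintains granulosa identity, had 16246 bp and its whole span was covered. Foxo1, a factor that FSH signalling keeps out of the nucleus, had 15605 bp. Lhx9, a gonadal ridge factor, had a single peak of 254 bp and was the lowest of the 20.

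In the FSH and LH pathway, the regulatory subunit of protein kinase A that FSH induces, Prkar2b, led with 44557 bp in 36 peaks. The insulin-like growth factor receptor gene Igf1r had 35883 bp, and the LH receptor gene Lhcgr had 25727 bp in 16 peaks. Fshr had 15301 bp in 7 peaks. The start of Fshr was covered by its widest peak, and further peaks of 4274, 3063 and 2409 bp lay inside the gene.

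Of the secreted factors, Inhbb had 46696 bp, Inha 30949 bp and Inhba 21377 bp in their windows. Amh differed from them: its window held 15533 bp in 17 peaks, but the gene itself met only peaks of 291 and 783 bp, and these were also at the ends of Sf3a2 and Jsrp1. Receptor genes of the same family included Bmpr1b (65535 bp) and Bmpr2 (28806 bp). Cyp19a1 had 17984 bp in 14 peaks, with none at either outer end of its span. The acetylated internal start lay 74421 bp inside the span, as RefSeq draws it, and the other listed starts had no peak within 1 kb.

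**Figure D4:**
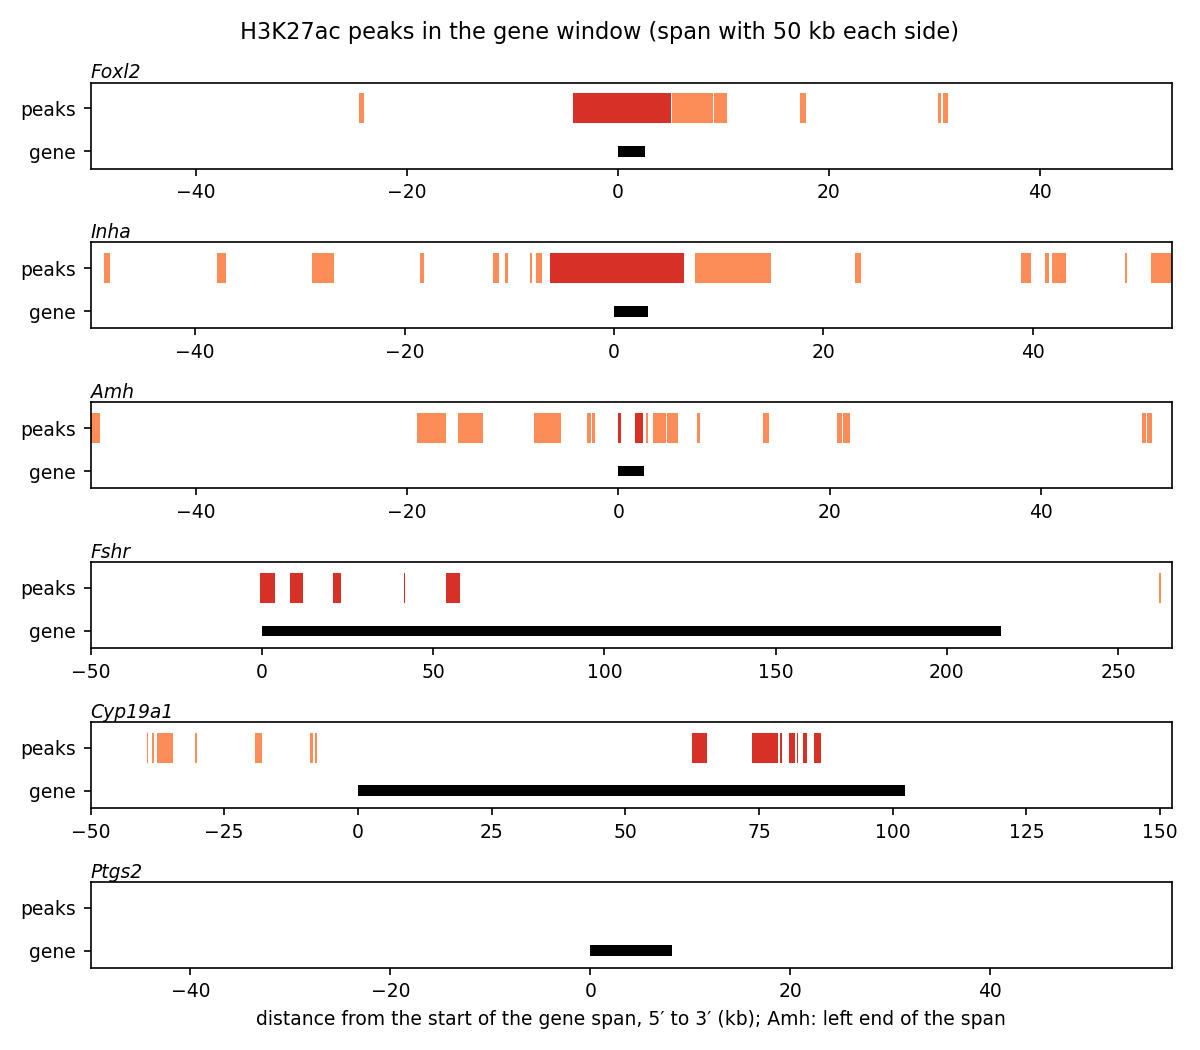
Position of H3K27ac peaks (bars) relative to the gene spans of Foxl2, Inha, Amh, Cyp19a1, Fshr and Ptgs2, with distance in kb from the start of the span on the x axis (its range differs by gene), red for peaks that overlap the gene and orange for others. Foxl2 and Inha lie wholly under a peak of 9280 and 12723 bp, Amh meets 2 small peaks, Cyp19a1 is acetylated at its internal start, and Ptgs2 has no peak.

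Steroid output after the surge draws on cholesterol and progesterone genes, and 16 of 18 had an acetylated end, beside 48.5% of all genes, with a median window of 6947.5 bp. Hsd3b1, which makes progesterone from pregnenolone, had 35589 bp in a window that also holds peaks of Hao2, and 8752 bp in the gene. The side-chain cleavage gene Cyp11a1 had 30548 bp and Scarb1 25847 bp in their windows. Star, which carries cholesterol into mitochondria and is rate limiting for the LH response, had 3972 bp in 6 peaks of its window and none in the gene or within 1 kb of its ends. Akr1c18, which breaks progesterone down in the corpus luteum, had 11001 bp in its window and none in the gene. A peak lay within 1 kb of an end, but not of its listed start. With 10 kb each side its window held 228 bp.

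Genes known for their induction by the LH surge were uneven. Of 20, 7 had an acetylated end, beside 48.5% of all genes, and 14 had a peak in the window, beside 76.3%. Their median window held 1889 bp, under the 2580 bp of all genes, but with each peak given to its nearest gene it was 555.5 bp, above the 511 bp of all genes. Areg, Ptgs2, Ptx3 and Hapln1, which encode an EGF-like growth factor, prostaglandin synthase and proteins of the expanding cumulus matrix, had no peak in the window, and the same was true of Edn2 and Il6. Has2, the hyaluronan synthase gene, and Plat each had 1 peak of 200 bp, and the progesterone receptor gene Pgr had 647 bp in 2 peaks away from the gene. Other members were acetylated: Cebpb had 14098 bp, Cebpa 12160 bp and Vcan 10019 bp, each with a peak at an end. Adamts4 had the most, 16959 bp, with none of it in the gene. No peak means that the authors' limit was not passed in 1 library of unknown depth, and the mark after hCG was not analysed here.

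Early response transcription factor genes, of which some also answer to LH, mostly had the mark at an end. It was found there at 16 of 20, beside 48.5% of all genes, with a median window of 5813.5 bp, and all 20 had a peak in the window. Nr4a1 had 25926 bp, Fos 19003 bp and Ier2 17969 bp. The enzymes and readers of acetylation had an acetylated end at 19 of 23 and a median of 5274 bp, and the coactivator gene Ncoa3 (19093 bp) and Hdac4 (12144 bp) were among those with most. The Ncoa3 window includes a 14351 bp peak of Sulf2.

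Basement membrane and junction genes had an acetylated end at 7 of 15 and a median of 2495 bp, near the 48.5% and 2580 bp of all genes, and their median was above that of all genes with 10 kb windows (1081 against 950 bp). Lama1 stood out with 29289 bp, followed by Hspg2 (9319 bp) and Tjp1 (9070 bp), while Col4a1, Nid1 and Gja4 had none. Cell cycle genes had an acetylated end at 18 of 20, beside 48.5% of all genes, and a median of 6155.5 bp. Aurkb (35779 bp), Cdk6 (29319 bp) and Top2a (16632 bp) came first, with 947, 28608 and 937 bp in the gene itself. Of the 15 housekeeping genes, 14 had an acetylated end, and the median was 8544 bp, with Actb (17863 bp) and Gapdh (16985 bp) first. Peaks of 5 kb or wider touched 0 of 20 cell cycle and 1 of 15 housekeeping genes, beside 1.07% of all genes.

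**Figure D5:**
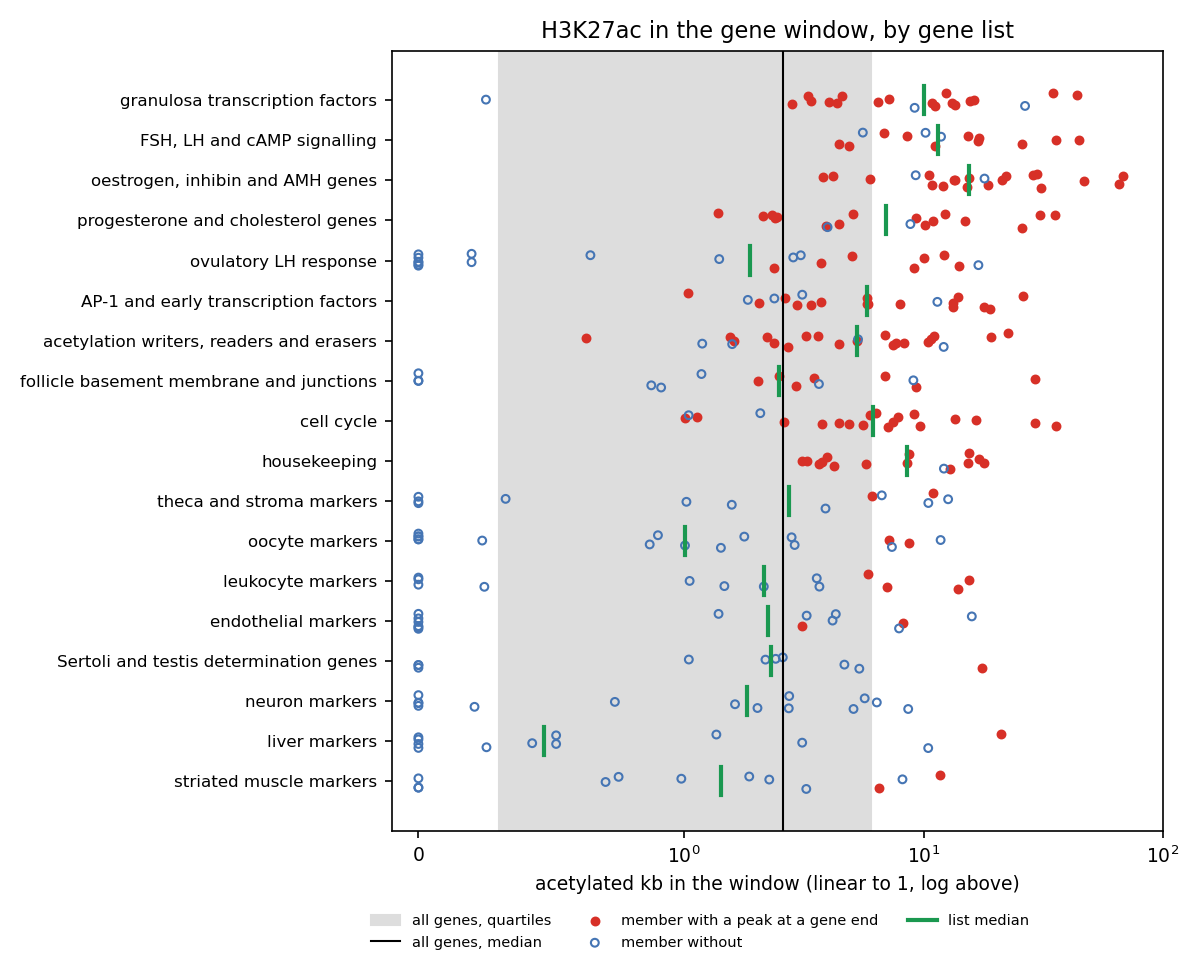
Acetylated kb in the window of each gene (x axis, linear to 1 kb and logarithmic above) for the members of 18 lists, with filled points for genes with a peak at an end, a green bar for the list median and grey for the quartiles of all genes. The oestrogen, inhibin and anti-Müllerian hormone genes have the highest median, 15533 bp, and the ovulatory genes have a median of 1889 bp, with 6 of them at 0.

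Markers of the other cells that a punctured ovary could release were mostly without a peak at their ends. An acetylated end was found at 2 of 12 theca and stroma genes, 2 of 17 oocyte genes, 4 of 13 leukocyte genes and 2 of 14 endothelial genes, beside 48.5% of all genes. Median windows held 2737, 1007, 2150 and 2249.5 bp, of which the theca and stroma median was above the 2580 bp of all genes. With 10 kb each side that median was 0, against 950 bp over all genes. List members with no peak in the window included Pdgfra, Tcf21 and Dcn of stroma and Bmp15, Figla, Lhx8 and Nlrp5 of the oocyte. They also included Ptprc, Lyz2 and Adgre1 of leukocytes, and Tek, Kdr, Flt1 and Emcn of endothelium. Theca genes with most were Gli1 (12673 bp, none in the gene), Cyp17a1 (11005 bp, with a peak at an end) and Tagln (10475 bp). Oocyte genes with most were Zp3 (11790 bp, none in the gene), Gdf9 (8667 bp) and Zp1 (7379 bp).

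Some of these peaks also lay at the ends of neighbouring genes. The peaks at the ends of Gdf9 and of the leukocyte genes Cd68 and Cd79a also lay at the ends of Uqcrq, Mpdu1 and Arhgef1. This did not hold for Cyp17a1 and Nr2f2 of theca, Dazl of the germ line, Spi1 of leukocytes (7036 bp), or Cdh5 and Sox18 (8204 bp) of endothelium. Fcer1g had 15482 bp and Cd68 13979 bp in their windows. Plvap (15917 bp) and Pecam1 (7902 bp) were the other endothelial genes with most, without a peak at an end. How many cells of these types the library held was not tested.

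Genes of other organs gave the background of the marker lists. Beside the 48.5% of all genes, an acetylated end was found at 0 of 14 neuron genes, 1 of 12 liver genes, 2 of 12 striated muscle genes and 1 of 10 Sertoli and testis genes, with medians of 1826.5, 473, 1429 and 2298 bp. Slc17a7 (8629 bp), Syn1 (6379 bp) and Syt1 (5677 bp) led the neuron genes, and Gad2, Neurod1, Neurod6 and Dlx2 had none. Apoa1 (21133 bp, its peak shared with Apoc3) and Hnf4a (3111 bp) were among the liver genes with most, and Alb, Apob, Ttr and Serpina1a had none. Mb (11715 bp), Myh6 (8167 bp) and Ckm (6516 bp) led the muscle genes, and Myod1, Myog and Tnnt2 had none. Dhh (17526 bp, its peak shared with Rhebl1), Rhox5 (5391 bp) and Ptgds (4670 bp) led the testis genes. Sox9 and Dmrt1, which direct Sertoli cell fate, and Fgf9 had none.

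Large gene families marked the extremes. Of 77 ribosomal protein genes, 76 had an acetylated end, and of 67 histone genes 61 had one, beside 48.5% of all genes. In the window, 53 of the histone genes had 10 kb or more, beside 11.7% of all genes, and clustered genes share peaks there. Of 1110 olfactory receptor genes 4 had an acetylated end and 170 a peak in the window, and of 355 vomeronasal receptor genes 1 and 37. Over all genes, 76.3% had a peak in the window. Of 53 keratin genes 4 had an acetylated end. The Hox clusters, which set position along the body axis, differed among themselves. All 11 Hoxa genes had windows without a peak, whereas all 9 Hoxc genes had peaks, from 3584 to 18376 bp, with an acetylated end at Hoxc6, Hoxc8, Hoxc9 and Hoxc10. In the Hoxd cluster a single 660 bp peak lay at an end of Hoxd3, and no Hoxb gene had an acetylated end.

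Chromosomes differed in how much they carried. Peaks per 100 protein-coding genes ran from 110 on chromosome X and 113 on chromosome 7 to 228 on chromosome 12. An acetylated gene end was found at 34.8% of genes on X and 39.5% on 7, and at up to 55.5% on 8. The median window on X held 645 bp. The longest stretch without a peak, read off after the map was drawn, was 12.6 Mb on X with 54 protein-coding genes, among them Slx, a gene of the male germ line. Another of 7.03 Mb on X held 19 genes, and one of 6.16 Mb on chromosome 16 held 3, namely Chodl, Tmprss15 and Ncam2.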

How the data were processed

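H3K27ac was measured by ChIP-seq in 1 library of wildtype granulosa cells. Reads were aligned with Bowtie2 2.4.5 to mm10 and peaks were called with MACS2, per the submitters' processing notes. For MACS2 the version, control and threshold, and for the library the depth, are not given in the sources used. The deposited list holds peak positions only, with other values left out, so a count of peaks and a width are all that can be drawn from it; a deeper library could give more and wider peaks.

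Peaks on chromosomes 1 to 19 and X were set against 21631 RefSeq protein-coding genes (GRCm38.p6) with an overlap of at least 1 bp. Some entries are placed at the very start of chromosome 1, such as Csprs at 111558-163011 and Ren2 at 159748-169505. Whether such positions belong to the assembled chromosome was not checked. These 2 genes had no peak in the window and count in the values over all genes. A gene end is either end of the span with 1 kb each side, and a window is the span with 50 kb each side. Starts and strands came from the RefSeq promoter table, which lists none on chromosome 18. Peaks up to about 13 kb apart were joined into domains, and 20 kb of acetylated sequence was the limit for a large one. The scripts were tested on simulated data and run with Python 3.11.15, numpy 2.4.6, pandas 2.3.3 and scipy 1.17.1. No test between samples was made.

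Members and lists were chosen with earlier results of these data known. Genes were named by rule: the first 10 by window bp and by window share, passing over genes whose windows overlap one already taken, the 10 widest peaks and top domains, the 3 members of each list with most and up to 4 without a peak, and 6 genes of follicle function. Families were counted. A few genes that the rule names are not reported here. Genes named outside that rule were chosen after their values were seen: the other list members, the later peaks and domains, the microRNAs and the stretches without peaks. The alternatives were gene ends of 500 bp and 2.5 kb, peak midpoints, windows of 10 kb or the span alone, nearest genes, peaks of 300 bp or wider, peaks joined across 500 bp, and domain gaps of 5 and 25 kb.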

Additional observations from a re-analysis of the deposited data

Results flagged for a closer look

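Outside chromosomes 1 to 19 and X, the list held 7 peaks on 4 unplaced or unlocalised contigs, which no comparison above used. There was no control list for H3K27ac to set them against, and no peak lay on chromosome Y.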

How the results depend on the processing

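The share of peaks at gene ends, 32.9% as reported, was 29.9% with ends of 500 bp, 38.7% with 2.5 kb, 29.9% by peak midpoints and 36.0% among peaks of 300 bp or wider. The share of genes with an acetylated end, 48.5%, became 46.5% with ends of 500 bp, 52.1% with 2.5 kb and 46.5% with peaks of 300 bp or wider. Genes with a peak in the window, 76.3%, became 63.0% with 10 kb each side, 54.6% for the span alone and 74.7% with peaks of 300 bp or wider. The median acetylated sequence per gene, 2580 bp, was 950 bp with 10 kb each side, 367 bp for the span alone and 511 bp with each peak given to its nearest gene. Large domains, 74 as reported, numbered 35 with gaps of up to 5 kb, 157 with 25 kb and 44 without the peaks at gene ends. Joining peaks across 500 bp left 28223, and 30693 were 300 bp or wider. Of 18 gene lists, 13 stayed on the same side of the median of all genes in 5 settings; the ovulatory list rose above it when each peak went to its nearest gene, and the basement membrane, theca, leukocyte and Sertoli lists also changed side. No paired analysis was possible because there is 1 H3K27ac library and no test between groups. Depth and peak height are unknown, so a missing peak cannot be told from a weak one.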
